A study of Nicotiana benthamiana with 3 samples.

Results

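The 44 tags named NbCD1U1 to NbCD1U44, here called the NbCD1 U tags, are transcripts of Nicotiana benthamiana leaves that an earlier SuperSAGE comparison selected as up when NbCD1 was overexpressed. In SuperSAGE, transcripts are counted by sequencing a short stretch (the tag) close to the 3′ end of each. All tags whose name begins with NbCD1U and a number were taken from the deposited table, which gave 44 of 154 tags. The other 110 tags are 39 named NbCD1 D, 42 named NbCD3 U and 29 named NbCD3 D. U was taken to mean up and D down, in keeping with how tags were picked for the array, although the labels do not define the letters. Neither gene names nor sequences of the tags are given in the sources used here, so they are described by name and no function is given to any of them.

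The product of NbCD1 belongs to class II of the ethylene-responsive element binding factors. These are plant transcription regulators that bind promoters of stress and defence genes, and members of class II in tobacco and Arabidopsis carry a repression motif through which they lower transcription. Overexpressed NbCD1 is known to cause cell death in N. benthamiana leaves. N. benthamiana is a relative of tobacco whose leaves take up Agrobacterium readily, which makes it a standard host for transient expression.

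There were 3 arrays, with 1 array for each group. Leaves of the GFP group carried a green fluorescent protein gene as the control, those of the NbCD1 group carried NbCD1, and those of the NbCD3 group carried NbCD3, a gene not described further in the sources used here. In all 3 groups Agrobacterium tumefaciens delivered the gene in the GVG cassette, a system that the glucocorticoid dexamethasone switches on. Dexamethasone followed the infiltration by 2 days, and leaves were collected 4 hours later. The control leaves thus share the bacterium and the hormone with the others, and untreated leaves are not analysed here. How many plants or leaves went into each RNA is not stated in the labels. The SuperSAGE libraries behind the NbCD1 selection held 10269 tags from GFP leaves and 10884 from NbCD1 leaves, and tags that differed by more than 4-fold were chosen. The NbCD1 U tags were therefore picked on leaves that had had the same treatment, so their direction between the NbCD1 and GFP arrays is not independent evidence.

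With 1 array per group there was no spread between replicates and no test, and each difference describes these arrays. Over all tags, log2 intensity spanned 5.03 to 14.94 (GFP array), 4.98 to 15.01 (NbCD1 array) and 4.87 to 14.98 (NbCD3 array). A level below is the log2 of the normalized intensity, and a log2 ratio is the difference of levels of the same tag on different arrays. Levels of different tags come from different oligonucleotides and do not rank the transcripts by abundance.

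The NbCD1 U tags were mostly brighter on the NbCD1 array than on the GFP array. Their median level was 11.75 on the GFP array, with the middle 50% of tags between 10.16 and 12.72, and 12.90 on the NbCD1 array, with the middle 50% between 11.45 and 13.43. The log2 ratio ran from -0.90 to 7.98 with a median of 0.82, where the median over all 154 tags was -0.23 and that over the 110 tags outside the list was -0.36. Of the 44 tags, 18 were at least 2-fold higher in NbCD1 (log2 ratio of at least 1), which is 40.9% of the list, beside 18.8% of all tags. The share of all tags includes the list itself. Outside the list it was 11 of 110 tags (10%), all of them among the 42 NbCD3 U tags. The other tags outside the list include all the D tags, taken as selected for being down. At the 4-fold level of the selection there were 11 tags, or 25% of the list, beside 9.74% of all tags. No NbCD1 U tag was 2-fold lower (0 of 44), beside 11.7% of all tags.

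**Figure D1:**
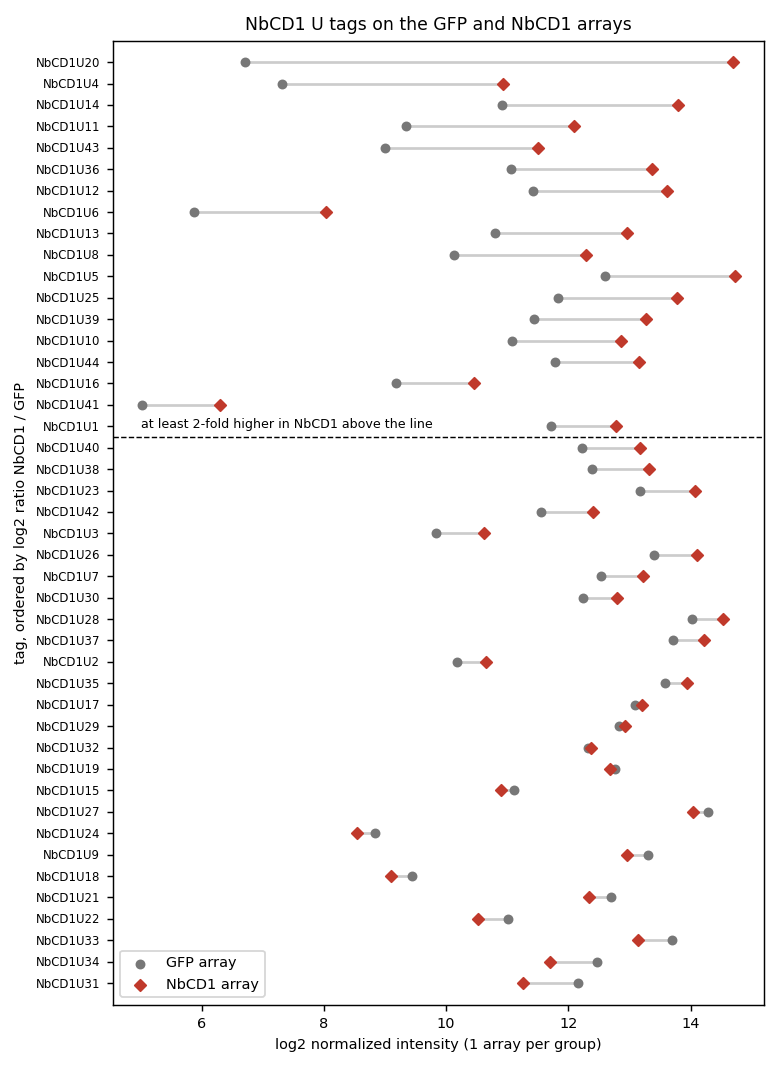
Log2 normalized intensity of each NbCD1 U tag (rows, ordered by log2 ratio) on the GFP array (grey circles) and the NbCD1 array (red diamonds), with 1 array per group and no error bars. The 18 tags above the dashed line were at least 2-fold higher in NbCD1, and NbCD1U20 at the top spans 7.98 log2 units.

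The 11 tags at least 4-fold higher in NbCD1 were NbCD1U20, U4, U14, U11, U43, U36, U12, U6, U13, U8 and U5. NbCD1U20 stood far above the others. Its level of 6.71 in GFP stood against 14.70 in NbCD1, a log2 ratio of 7.98. The GFP signal lay near the dim end of its array, where no background level is known, so the ratio depends on how dim values are treated, and it was 4.20 after adding a pseudocount of 1413 intensity units to every value. It moved from place 151 of 154 in the order of brightness on the GFP array to place 4 on the NbCD1 array. The next tag, NbCD1U4, had a level of 7.32 in GFP and 10.93 in NbCD1, a log2 ratio of 3.61 that was 1.10 with that pseudocount. Both were thus near the bottom of the range on the GFP array, but NbCD1U4 reached only place 108 on the NbCD1 array.

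NbCD1U14 had a level of 10.91 in GFP and 13.80 in NbCD1, a log2 ratio of 2.89. NbCD1U11 had 9.35 and 12.09 (log2 ratio 2.74). For NbCD1U43 the levels were 9.00 and 11.51 (log2 ratio 2.51). These tags were 5.70-fold to 7.39-fold brighter in NbCD1.

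A group of 6 tags lay close together between 4-fold and 5-fold. NbCD1U36 went from 11.07 in GFP to 13.36 in NbCD1 (log2 ratio 2.30). NbCD1U12 went from 11.42 to 13.62 (log2 ratio 2.21), and NbCD1U13 from 10.79 to 12.96 (log2 ratio 2.17). These 3 tags held places 95 to 109 of 154 in the order of brightness on the GFP array and places 23 to 44 on the NbCD1 array. NbCD1U8 went from 10.13 to 12.28 (log2 ratio 2.15). NbCD1U5, at 12.61 in GFP and 14.72 in NbCD1 (log2 ratio 2.12), was the second brightest of all tags on the NbCD1 array. NbCD1U6 had nearly the same log2 ratio, 2.17, from levels of only 5.87 and 8.04, near the dim end of both arrays, and was at 0.19 with the pseudocount.

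The 7 tags between 2-fold and 4-fold higher were NbCD1U25, U39, U10, U44, U16, U41 and U1. NbCD1U25 had a level of 11.84 in GFP and 13.78 in NbCD1, NbCD1U39 had 11.44 and 13.27, and NbCD1U10 had 11.08 and 12.87. These tags differed by 3.86-fold, 3.55-fold and 3.46-fold, short of the 4-fold level. NbCD1U44 had 11.78 in GFP and 13.15 in NbCD1 (log2 ratio 1.38). NbCD1U16 had 9.17 and 10.46 (log2 ratio 1.28, and 0.50 with the pseudocount). NbCD1U41 was the dimmest tag on the whole GFP array, at 5.03, and the next to dimmest on the NbCD1 array, at 6.30, so its log2 ratio of 1.27 lay wholly at the bottom of the range and was 0.045 with the pseudocount. After quantile normalization the ratio of NbCD1U41 was 0.87.

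NbCD1U1, at 11.72 in GFP and 12.78 in NbCD1, was the last tag inside 2-fold, with a log2 ratio of 1.06. The 3 tags just outside were NbCD1U40 (12.23 and 13.17, log2 ratio 0.95), NbCD1U38 (12.38 and 13.32, log2 ratio 0.94) and NbCD1U23 (13.18 and 14.07, log2 ratio 0.89). No gap separated the tags inside from those outside. Centring each array on its median put NbCD1U40 and NbCD1U38 past 2-fold as well, at log2 ratios of 1.03 and 1.02, while centring on the 75th percentile left NbCD1U1 at 0.99. With the pseudocount NbCD1U1 was at 0.82.

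Between these and equality, 12 more tags were higher in NbCD1 by less than 2-fold. NbCD1U42 (11.55 in GFP, 12.40 in NbCD1), NbCD1U3 (9.83 and 10.62), NbCD1U26 (13.40 and 14.11) and NbCD1U7 (12.54 and 13.22) had log2 ratios from 0.68 to 0.85. NbCD1U30 (12.24 and 12.80), NbCD1U28 (14.02 and 14.54), NbCD1U37 (13.72 and 14.21), NbCD1U2 (10.17 and 10.66) and NbCD1U35 (13.57 and 13.94) had log2 ratios from 0.36 to 0.56. NbCD1U17, NbCD1U29 and NbCD1U32 were nearly equal on both arrays, with log2 ratios of 0.11, 0.10 and 0.06. Several of these tags, NbCD1U28, U37, U26 and U35 among them, were among the brightest 28 tags of the GFP array already.

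The other 11 tags were lower on the NbCD1 array, against the direction of their selection. The lowest was NbCD1U31, at 12.15 in GFP and 11.25 in NbCD1 (log2 ratio -0.90), a difference of 1.87-fold. NbCD1U34 had 12.47 and 11.70 (log2 ratio -0.77), and NbCD1U33 had 13.70 and 13.13 (log2 ratio -0.57). None of these reached 2-fold. The remaining 8 were NbCD1U22, U21, U18, U9, U24, U27, U15 and U19, with log2 ratios from -0.49 to -0.09. Among them were NbCD1U27, the brightest NbCD1 U tag on the GFP array at 14.28, and dim tags such as NbCD1U24, at 8.84 in GFP and 8.54 in NbCD1, so tags that were not higher occurred over most of the range.

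**Figure D2:**
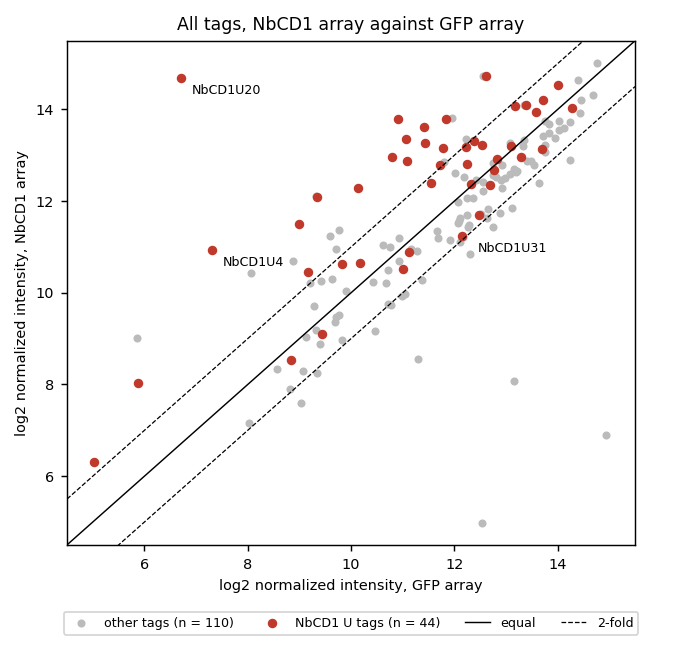
Log2 normalized intensity on the NbCD1 array (y axis) against the GFP array (x axis) for the 44 NbCD1 U tags (red) and the other 110 tags (grey), with lines of equality and of 2-fold difference. The NbCD1 U tags lie mostly above the line of equality, NbCD1U20 farthest from it, and the lowest log2 ratio among them is -0.90 (NbCD1U31).

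How the log2 ratios ran with the level was then described with the mean of the GFP and NbCD1 levels of each tag, rather than with the GFP level alone. Both levels enter the ratio as well, so the mean is not independent of it. In the dimmest 11 NbCD1 U tags (mean level from 5.66 to 10.72) the median log2 ratio was 1.28, and 7 tags were at least 2-fold higher. In the next 11 tags by level the median was 0.85, and in the 11 after those 0.95, with 5 tags at least 2-fold higher in each. It was 0.49 in the brightest 11 tags (mean level from 12.88 to 14.28), where only NbCD1U5 was at least 2-fold higher. Tags outside the list within the same bounds of level had medians of -0.24, -0.53, -0.23 and -0.51 from the dimmest to the brightest set (35, 30, 14 and 25 tags). Of these tags, 6, 1, 1 and 1 were at least 2-fold higher in NbCD1, so such tags were most frequent in the dimmest set outside the list too. At least 2-fold lower were 9, 6, 1 and 2 of them, so lower tags outnumbered higher ones in the dimmest set. The median of the list was thus above that of the other tags in each set, but these others include tags selected as down.

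The log2 ratios were uneven over the number in the tag name, with no steady rise or fall. Of the tags numbered 1 to 11, 10 were higher in NbCD1 and 7 at least 2-fold higher, with a median log2 ratio of 1.79. The tags numbered 12 to 22 had a median of 0.11, although 5 of them, NbCD1U12, U13, U14, U16 and U20, were at least 2-fold higher. Those numbered 23 to 33 had a median of 0.10, with NbCD1U25 as the only tag 2-fold higher. From 34 to 44 the median was 0.95, and 5 tags were at least 2-fold higher. What the numbers stand for is not given in the sources used here, so this is a description of the names.

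**Figure D3:**
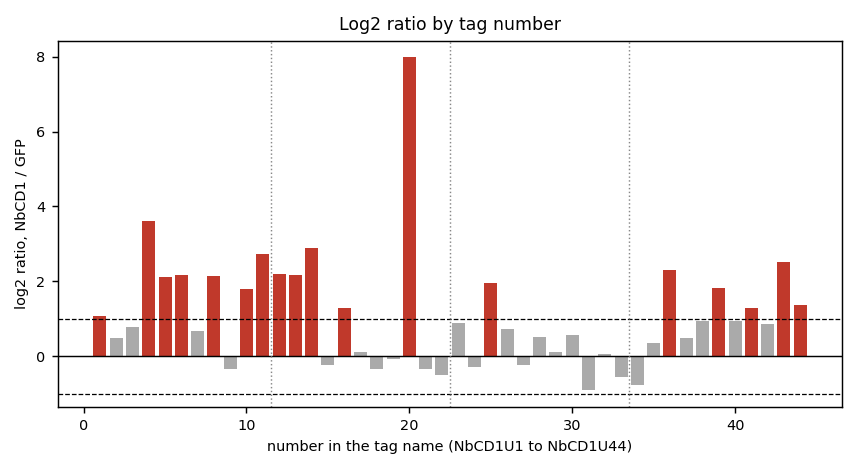
Log2 ratio of NbCD1 over GFP (bars, y axis) by the number in the tag name (x axis) for the 44 NbCD1 U tags, with dashed lines at 2-fold and dotted lines between sets of 11 numbers. Red bars are the 18 tags at least 2-fold higher in NbCD1, 7 of them among the first 11 numbers and 1 among numbers 23 to 33.

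The NbCD3 array gave a further level for each tag, but its values did not follow the tag names as deposited. Over the 110 tags outside the list, its levels correlated with the GFP array at a Pearson r of -0.24 and with the NbCD1 array at -0.12, where GFP and NbCD1 correlated at 0.70. The values were therefore also read in NbCD3-first order, in which the tag names are listed with NbCD3 before NbCD1, U before D and by number, and are matched to values listed with NbCD1 first. Read so, r over these 110 tags was 0.65 with GFP and 0.87 with NbCD1. Over the 44 NbCD1 U tags themselves, r with the NbCD1 array went from -0.24 as deposited to 0.75, and the median absolute log2 difference from that array went from 1.65 to 0.34. Tags on an array are not independent replicates, and this order was first found in these data by its correlation with GFP. The NbCD3-first order is used below, and the counts and medians of the list are also given with the deposited names. Every level and ratio of a single tag on the NbCD3 array below holds for the NbCD3-first order alone. With the deposited names, the log2 ratio had the opposite sign in 16 of the 44 tags against GFP and in 21 against NbCD1.

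**Figure D4:**
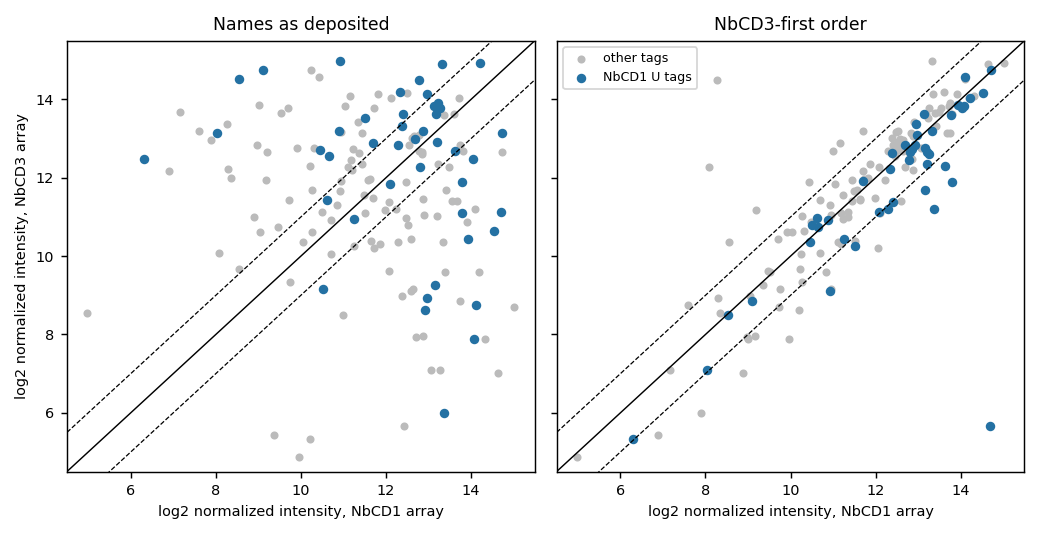
Log2 normalized intensity on the NbCD3 array (y axes) against the NbCD1 array (x axes), with NbCD3 values under the names as deposited (left) and in NbCD3-first order (right); NbCD1 U tags are blue, other tags grey, and lines show equality and 2-fold. The NbCD1 U tags follow the diagonal only on the right, with r of 0.75 against -0.24 on the left, and NbCD1U20 lies alone at the lower right.

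Against GFP, the NbCD1 U tags had a median log2 ratio of 0.32 on the NbCD3 array, where that of all tags was -0.16. Of the 44 tags, 13 were at least 2-fold higher in NbCD3 (29.5% of the list, beside 19.5% of all tags) and 2 at least 2-fold lower (4.55%, beside 12.3%). At 4-fold there were 2 tags higher, which is 4.55% of the list, the same share as the 4.55% of all tags. With the names as deposited, 24 tags were at least 2-fold higher and 11 lower, with a median of 1.31, beside 37.7% and 35.7% of all tags. The comparison uses the same GFP array as that of NbCD1 with GFP, so a GFP level that is off by chance moves both the same way, and the values are set side by side without a measure of overlap.

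The 2 tags past 4-fold in NbCD3 were NbCD1U13 and NbCD1U5. NbCD1U13 had levels of 10.79 in GFP, 12.96 in NbCD1 and 13.39 in NbCD3. NbCD1U5 had 12.61 in GFP, 14.72 in NbCD1 and 14.76 in NbCD3. Both were thus about as bright in NbCD3 as in NbCD1 leaves. The same held for NbCD1U25, at 11.84, 13.78 and 13.61, for NbCD1U10, at 11.08, 12.87 and 12.74, and for NbCD1U16, at 9.17, 10.46 and 10.36. In each of these tags the NbCD1 and NbCD3 levels lay within 1.34-fold of each other. This too depends on the reading: with the deposited names NbCD1U5 had a log2 ratio of 0.54 against GFP, and NbCD1U16 and NbCD1U13 were higher in NbCD3 than in NbCD1 by 2.26 and 1.18 log2 units.

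The levels in NbCD3 of 3 further tags past 2-fold lay below those in NbCD1. NbCD1U11 had levels of 9.35 in GFP, 12.09 in NbCD1 and 11.14 in NbCD3, NbCD1U39 had 11.44, 13.27 and 12.61, and NbCD1U6 had 5.87, 8.04 and 7.09. They were 1.57-fold (NbCD1U39) to 1.93-fold lower in NbCD3 than in NbCD1, short of 2-fold. The remaining tags of the 13 were NbCD1U4, U8 and U43, described below, and NbCD1U26 and U3. With the pseudocount, 5 of the 13 counted as at least 2-fold higher, and NbCD1U11, U39, U6, U4, U8, U43, U16 and U3 did not.

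NbCD1U26 and NbCD1U3 were at least 2-fold higher in NbCD3 but not in NbCD1. The levels of NbCD1U26 were 13.40 in GFP, 14.11 in NbCD1 and 14.57 in NbCD3, and those of NbCD1U3 were 9.83, 10.62 and 10.97. Their levels in NbCD1 and NbCD3 differed by only 1.38-fold and 1.28-fold. The log2 ratio of NbCD1U3 to GFP, 1.14, was 0.81 after quantile normalization and 0.56 with the pseudocount. NbCD1U31, the tag with the lowest ratio in NbCD1, had a level of 10.45 in NbCD3 (log2 ratio -1.70 against GFP) and was the lowest there too.

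The direct comparison of NbCD3 with NbCD1 does not use the GFP array, but it shares the NbCD1 array with the comparison of NbCD1 with GFP. An NbCD1 level that is high by chance raises the ratio to GFP and lowers that of NbCD3 to NbCD1. The list was also selected as up in NbCD1 leaves, so its direction here is not independent evidence either. Here 9 NbCD1 U tags were at least 2-fold lower in NbCD3 (20.5% of the list, beside 15.6% of all tags), and none was 2-fold higher (0 of 44, beside 6.49%). The median log2 ratio of the list was -0.21, with 32 tags lower and 12 higher, where the median of all tags was -0.07 and that of the tags outside the list 0.13. Of all tags, 80 were lower and 74 higher, and of those outside the list 48 were lower and 62 higher. With the names as deposited, 15 tags were at least 2-fold higher and 14 lower, beside 35.7% and 34.4% of all tags.

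The 9 tags were NbCD1U20, U36, U14, U4, U44, U12, U43, U8 and U42. NbCD1U20 had a level of 5.67 in NbCD3 against 14.70 in NbCD1, a log2 ratio of -9.03 that was -4.25 with the pseudocount, and its GFP level was 6.71. It was thus close to the dim end of both the GFP and the NbCD3 arrays and near the top of the NbCD1 array alone. NbCD1U36 had levels of 11.07 in GFP, 13.36 in NbCD1 and 11.21 in NbCD3, 4.45-fold lower in NbCD3 than in NbCD1. NbCD1U44 had 11.78, 13.15 and 11.70, a 2.74-fold difference. In NbCD1U36 and NbCD1U44 the NbCD3 level was within 1.10-fold of GFP.

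The levels in NbCD3 of 5 others lay between those of GFP and NbCD1. These 5 tags were also at least 2-fold higher in NbCD1 than in GFP, each on a single array. An NbCD1 level high by chance, or a GFP level low by chance, can also place the NbCD3 level between them, which was not tested. NbCD1U14 had levels of 10.91 in GFP, 11.88 in NbCD3 and 13.80 in NbCD1. NbCD1U4 had 7.32, 9.10 and 10.93, and NbCD1U12 had 11.42, 12.31 and 13.62. For NbCD1U43 the levels were 9.00, 10.25 and 11.51, and for NbCD1U8 10.13, 11.20 and 12.28. These tags were brighter on the NbCD1 array than on the NbCD3 array by 2.12-fold (NbCD1U8) to 3.78-fold (NbCD1U14). NbCD1U42, at 11.55 in GFP, 12.40 in NbCD1 and 11.38 in NbCD3, was 2.03-fold lower in NbCD3 and just past the threshold. With the pseudocount NbCD1U4, U43, U8 and U42 were no longer past 2-fold, at log2 ratios of -0.78, -0.72, -0.76 and -0.74. NbCD1U8 and NbCD1U42 were also not past it after centring each array on its median, which moved the median log2 ratio of all tags by 0.11 for this comparison and by 0.20 for NbCD3 against GFP.

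**Figure D5:**
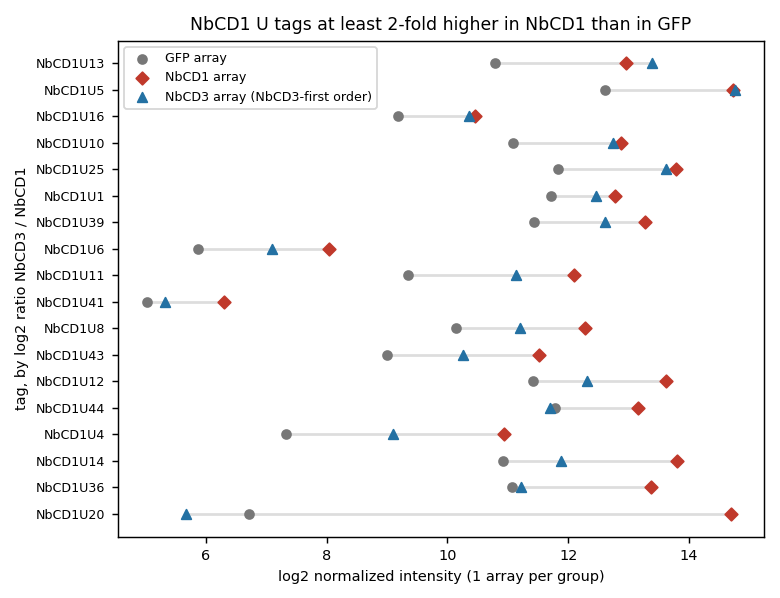
Log2 normalized intensity (x axis) of the 18 NbCD1 U tags at least 2-fold higher in NbCD1 than in GFP (rows, ordered by log2 ratio of NbCD3 over NbCD1) on the GFP array (grey circles), the NbCD1 array (red diamonds) and the NbCD3 array in NbCD3-first order (blue triangles). The NbCD3 level of NbCD1U5 and NbCD1U16 falls on or near that of NbCD1, that of NbCD1U36 and NbCD1U44 near GFP, and that of NbCD1U20 far below NbCD1. The rows were chosen by the same GFP and NbCD1 levels that are plotted.

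Read in NbCD3-first order, some NbCD1 U tags had nearly the same levels as a tag of another list on every array. The sources used here give no tag sequences, so whether such tags stand for the same transcript is not known. Of 5786 pairs of an NbCD1 U tag with another tag, 5 had levels within 0.1 log2 units on all 3 arrays in NbCD3-first order, and in all 5 the other tag was an NbCD3 U tag (5 of 1848 such pairs). NbCD1U5 and NbCD3U18 differed by at most 0.043, and NbCD1U11 and NbCD3U25 by at most 0.027, with levels that differ by several log2 units between these pairs. NbCD1U26 and NbCD3U24 differed by at most 0.054, NbCD1U1 and NbCD3U27 by at most 0.076 and NbCD1U32 and NbCD3U2 by at most 0.097. No pair within the NbCD1 U list (0 of 946) was that close. With the names as deposited, none of the 5 pairs stayed within 0.1, as their NbCD3 levels differed by 0.48 to 2.45. The only pair within 0.1 on all 3 arrays was then NbCD1U15 with an NbCD3 D tag.

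Pairs chosen by the GFP and NbCD1 arrays alone show how their NbCD3 values behaved under each reading. The NbCD3-first order was itself chosen by its correlation with these arrays. Closer NbCD3 levels in that order therefore follow in part from the choice and are not separate evidence for it. Within 0.1 log2 units on both of these arrays were 11 pairs of an NbCD1 U tag with another tag, the 5 pairs above among them. Their NbCD3 levels differed by a median of 0.14 in NbCD3-first order, with 8 of the 11 pairs within 2-fold. With the names as deposited, the median was 1.88, and 3 of the 11 pairs were within 2-fold. The NbCD3 levels of NbCD1U5 and NbCD3U18, for example, differed by 0.002 in NbCD3-first order and by 0.48 as deposited, and those of NbCD1U11 and NbCD3U25 by 0.024 and 2.18. Both examples are among the 5 pairs already picked for close NbCD3 levels in NbCD3-first order. The pairs of NbCD1U15 and of NbCD1U34 went the other way. Their NbCD3 levels differed by 0.144 and 1.269 in NbCD3-first order and by 0.034 and 0.895 as deposited.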

How the data were processed

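Biotin-labelled total RNA was hybridised to an array of SuperSAGE tags, 1 colour, with 1 array for each of 3 groups, taken from each sample's source name (the free-text description of the NbCD1 sample also carries the word control). The authors deposited 1 linear normalized intensity per tag and array, for which the submitters' processing notes name RMA without a version. All 462 values have a log2 within 1e-05 of a number with 3 decimals. Scanner, probes per tag, background and filters are not given in the labels or the table, and the number of arrays limits the precision.

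Levels are log2 of the intensity with no pseudocount and no filter. Tags were counted at 2-fold, with 1.5-fold and 4-fold as alternatives. No test was made. All 44 tags could be named, and values are given for each tag past 2-fold in NbCD1 against GFP, for the 3 on each side of that threshold and for the lowest ratios. Tags of other lists were named where all 3 levels lay within 0.1 of a member. The members, lists and rules were chosen with earlier results of these data known. The NbCD3 values were read in NbCD3-first order if their correlation with both other arrays over the 110 other tags was higher than as deposited. Splits by tag number and the pairs on the GFP and NbCD1 arrays were added after the data were seen. Calculations used Python 3.11.15, numpy 2.4.6 and pandas 2.3.3 and were tested on simulated data.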

Additional observations from a re-analysis of the deposited data

Results flagged for a closer look

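NbCD1U20 was the only NbCD1 U tag at least 2-fold from GFP in opposite directions on the NbCD1 and NbCD3 arrays, with log2 ratios of 7.98 and -1.04 in NbCD3-first order. Its log2 ratio of NbCD3 to NbCD1 was -9.025, and -4.25 with the pseudocount, since the NbCD3 signal was near the dim end of its array. The GFP signal, which does not enter that ratio, was near the dim end of its array too. With a single array in each group, this difference was not tested. Its ratio of NbCD3 to GFP was -0.84 with median centring of the arrays, 0 with quantile normalization and -0.052 when the pseudocount was added. With the names as deposited, the tags going opposite ways were NbCD1U36 (2.30 in NbCD1 and -5.08 in NbCD3) and NbCD1U44 (1.38 and -2.51).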

How the results depend on the processing

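No paired analysis was possible because no group had more than 1 array. For NbCD1 against GFP, the count of 18 NbCD1 U tags past 2-fold was 20 with centring on the median, 17 with centring on the 75th percentile or quantile normalization, 13 of 35 without the lowest 25% of tags and 14 with a pseudocount of 1413 intensity units. It was 27 at 1.5-fold, 2 of these lower (77 of all 154 tags, 36 of these lower), and 11 at 4-fold (19 of all tags). Counts over all tags were not made under the scalings, the pseudocount or the removal of low tags. The pseudocount brought the median log2 ratio from 0.82 to 0.49. For NbCD3 against GFP in NbCD3-first order, the 15 tags became 6 with the pseudocount, 2 at 4-fold and 35 with the names as deposited. Of all 154 tags, 49 were past 2-fold, 16 past 4-fold and 113 past 2-fold as deposited. The median of the list, 0.32, became 0.52 with median centring and 1.31 as deposited. For NbCD3 against NbCD1, the 9 tags became 5 with the pseudocount, 15 at 1.5-fold, 2 at 4-fold and 29 as deposited. Of all 154 tags, 34 were past 2-fold, 58 past 1.5-fold, 5 past 4-fold and 108 past 2-fold as deposited. The median of the list, -0.21, became -0.094 with median centring, -0.12 with the pseudocount and 0.48 as deposited. Among tags past 2-fold in NbCD3-first order, the deposited names turned the log2 ratios against GFP of NbCD1U20 (4.42), NbCD1U25 (-0.72) and NbCD1U26 (-4.63), and those against NbCD1 of NbCD1U4 (4.05), NbCD1U42 (1.22), NbCD1U43 (2.02) and NbCD1U8 (0.56). The pseudocount by its construction shrinks the ratios of dim tags most: NbCD1U20 went from 7.98 to 4.20, NbCD1U4 from 3.61 to 1.10, NbCD1U6 from 2.17 to 0.19 and NbCD1U41 from 1.27 to 0.045 in NbCD1 against GFP. NbCD1U6, U41, U16 (0.50) and U1 (0.82) were then no longer past 2-fold.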
